A study of Mus musculus with 16 samples.

Results

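The 40 genes described here act in the G2 phase and in mitosis of the cell cycle, and they were followed in primary mouse lung fibroblasts after knockdown of a lysyl oxidase. They were chosen by name, as the non-control probes whose gene name in the scanner files was one of the 40 symbols, and not by their values. Earlier results of these data were known when they were chosen. All 40 were on the array and all passed the filter on dim probes, so they make up 40 of the 22644 genes tested. Their 58 probes left 57 after the filter. The brightest kept probe stood for a gene, and 13 of the genes had several kept probes.

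Lysyl oxidases are secreted enzymes that cross-link collagen and elastin, and fibroblasts are a main source of them in lung. The cells had been isolated from mouse lung, grown through 3 or more passages, seeded in 6-well plates and transfected with siRNA. They were collected at 48 hours, and total RNA was labelled with Cy3 for 1-colour arrays. The groups were siLox (siRNA against Lox), siLoxL1 (against Loxl1), siLoxL2 (against Loxl2) and scr (scrambled control siRNA), with 4 arrays each. The strain, sex and age of the mice were not given in the sources used here. Nothing in the labels says whether the 4 samples of a group came from separate isolations, so the p-values measure the spread between these samples, which may be technical. Exogenous expression is named in the title of the series, but the sample labels describe siRNA, and the groups here follow those labels.

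The siLox and scr arrays were on 1 slide and the siLoxL1 and siLoxL2 arrays on another, and on each slide a group filled a row of its own. Group and slide row therefore cannot be told apart within a slide, and in siLoxL1 or siLoxL2 against scr the siRNA and the slide cannot be told apart. The share of spots well above background was 49.2% to 52.3% on the slide of siLox and scr and 60.4% to 63.1% on the slide of siLoxL1 and siLoxL2. Lox averaged 1.14 in siLox and 4.07 in scr cells, a log2 fold change of -2.92 ± 0.31 (SE, limma adjusted p = 0.0032), with siLox arrays between 0.39 and 2.04. Loxl1 and Loxl2 were also lower in siLox than in scr cells (log2 fold change -0.49 and -0.71, limma adjusted p = 0.0347 and 0.0248). Loxl1 was lower in siLoxL1 than in siLoxL2 cells by a log2 fold change of -1.15 ± 0.06 (limma adjusted p = 0.000216). Loxl2 was at 5.69 in siLoxL1 and 5.38 in siLoxL2 cells, a difference of 0.30 ± 0.08 (limma adjusted p = 0.0551) that missed the threshold, and against scr it was lower in both (log2 fold change -0.76 in siLoxL1 and -1.06 in siLoxL2). All 10 fibroblast markers, among them the collagen genes Col1a1 and Col1a2, were well above background on all 16 arrays.

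Entry into mitosis is driven by cyclin-dependent kinase 1 bound to A- and B-type cyclins and released from inhibition by the CDC25 phosphatases. Polo-like and aurora kinases, the centromere, the spindle assembly checkpoint and kinesin motors then align and separate the chromosomes, and the anaphase-promoting complex destroys cyclin B and securin before the cell is cleaved. Most of these genes are transcribed in G2 and switched off after division, under the control of FOXM1, B-MYB and the MuvB core of the DREAM complex, so their messages are abundant in dividing cultures. In RNA of a whole culture, fewer cells in G2 or mitosis and less message per such cell cannot be told apart. Levels are given below as log2 intensity minus that of each array's 75th percentile, so that 0 is the level of that percentile and a difference of 1 is a factor of 2. Such levels are compared between arrays for the same probe and not between genes.

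In siLox against scr, 15 of the 40 genes passed the test (limma, adjusted p under 0.05 over all 22644 genes). Of these, 14 fell and 1, the centriole duplication kinase Plk4, rose. In the background of all genes, 25.0% passed, 13.5% lower and 11.5% higher, against 35% lower and 2.5% higher of the 40. The median log2 fold change of the 40 was -0.19, against -0.05 over all genes. Of the 40, 35 lay below 0, as did 56.1% of all genes, and 33 lay below the median of all genes. In 22 of the 40 genes (55%) the 4 siLox and the 4 scr arrays did not overlap, against 30.6% of all genes. The mean over the 40 levels was 1.99, 2.05, 1.90 and 1.98 in the siLox arrays, against 2.19, 2.11, 2.16 and 2.18 in the scr arrays. No siLox array reached the lowest scr array on that mean. The count varied with single arrays: it was 7, 7 and 5 without siLox replicate 1, 2 or 3, and 6 and 5 without scr replicate 1 or 3. The share of all genes that passed also fell in these fits, to 10.2%, 8.59% and 8.19% without those siLox arrays and to 16% and 8.08% without those scr arrays. The 6 of 40 without scr replicate 1 were no larger a share than that of all genes in both directions together. All 6 were lower, whereas 51.2% of all genes that passed in that fit were higher. Anln, Ccna2, Ccnb2 and Cdc25b passed whichever array was left out, Plk1 passed in 7 of the 8 such fits, and the other 10 genes passed in 1 to 3 of them.

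**Figure D1:**
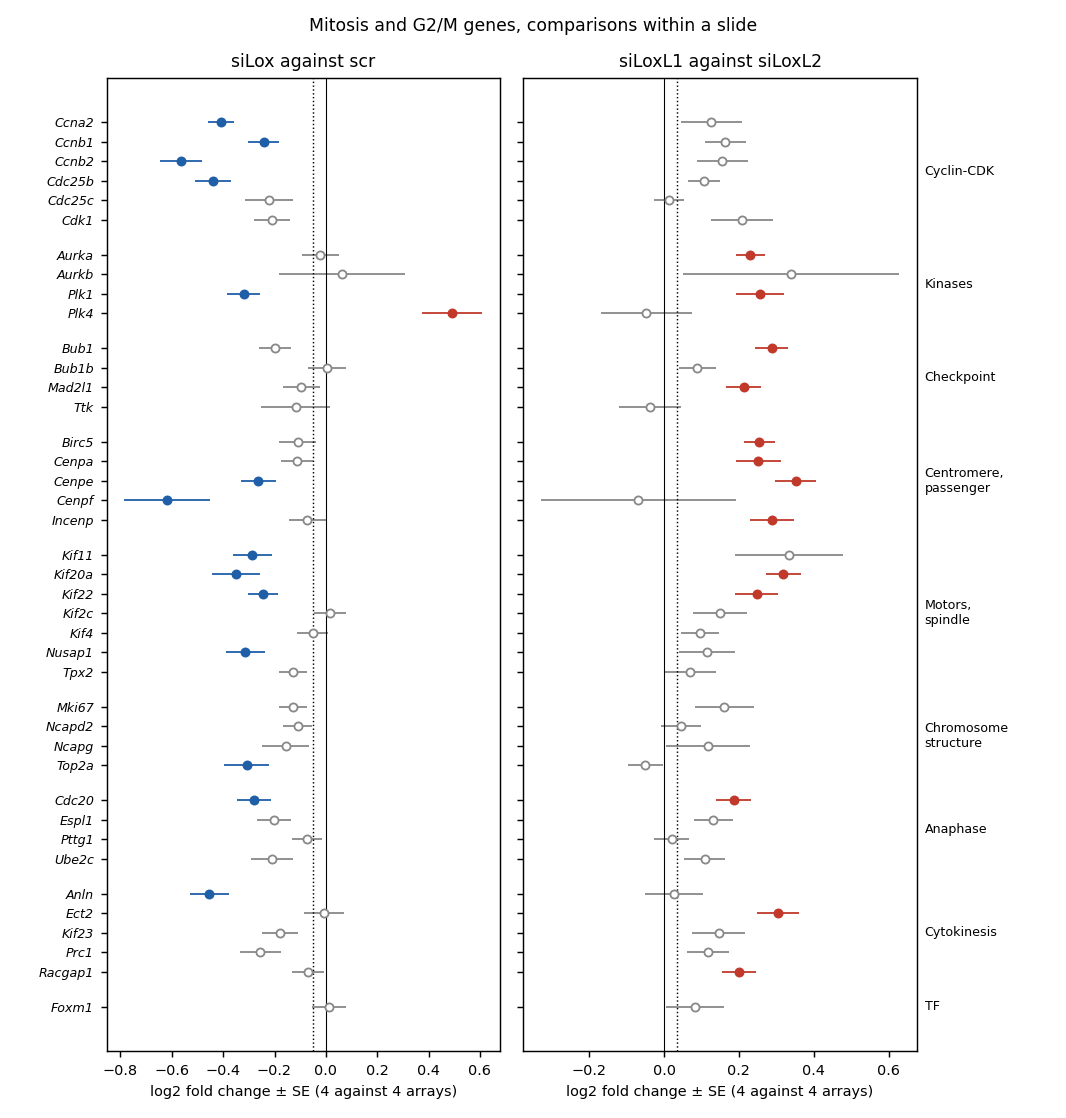
Log2 fold change of each of the 40 genes with its SE, siLox against scr on the left and siLoxL1 against siLoxL2 on the right, with genes by role down the page, filled points for genes past the threshold (red higher, blue lower) and a dotted line at the median of all genes. On the left the 14 genes that fell and Plk4, which rose, stand out, and on the right all 13 filled points are above 0.

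Of the 6 cyclin, cyclin-dependent kinase and CDC25 genes, 4 fell in siLox cells and none rose, with a median log2 fold change of -0.33. Ccnb2, a B-type cyclin whose probe lies at chr9:70255671-70255730 (mm9, minus strand), measured 3.51, 3.69, 3.55 and 3.63 in siLox cells, against 4.31, 4.09, 4.22 and 4.02 in scr cells. The lowest scr array was above the highest siLox array, and the level in siLox cells was 67.6% of that in scr cells (log2 fold change -0.56 ± 0.08 SE, limma adjusted p = 0.00733). Ccna2, the A-type cyclin of S phase and G2 (probe at chr3:36463978-36464037, mm9, minus strand), measured 2.89, 2.91, 2.82 and 2.87 in siLox cells, against 3.29, 3.26, 3.30 and 3.29 in scr cells. It fell by 0.41 ± 0.05 on the log2 scale (limma adjusted p = 0.00488). Cdc25b, a phosphatase that activates CDK1, measured 0.81, 0.98, 0.95 and 0.98 in siLox cells, against 1.51, 1.31, 1.32 and 1.35 in scr cells, again without overlap (log2 fold change -0.44 ± 0.07, limma adjusted p = 0.00985).

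Ccnb1, the main mitotic cyclin, fell less by its brightest probe, with 3.13, 3.29, 3.15 and 3.22 in siLox cells, against 3.42, 3.43, 3.38 and 3.52 in scr cells (log2 fold change -0.24 ± 0.06, limma adjusted p = 0.029). Its other kept probes, well above background on all 16 arrays, were at -0.12 and -0.08 and did not pass (limma adjusted p = 0.226 and 0.452). With the mean of the probes the Ccnb1 call was lost. Cdk1, the kinase these cyclins activate, measured 2.45, 2.54, 2.46 and 2.47 in siLox cells, against 2.82, 2.54, 2.71 and 2.68 in scr cells. The Cdk1 groups did not overlap, with replicate 2 of each only just apart, but the difference of -0.21 ± 0.07 missed the threshold (limma adjusted p = 0.062, exact two-sided permutation p = 0.0286, the smallest that 4 against 4 arrays can give). Cdc25c, another CDC25 phosphatase, was at -0.22 ± 0.09 (limma adjusted p = 0.11).

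Among the mitotic kinases the siLox values went apart. Plk1, a kinase needed for mitotic entry, centrosome maturation and cytokinesis, measured 5.13, 5.07, 4.92 and 4.99 in siLox cells, against 5.38, 5.37, 5.27 and 5.37 in scr cells. Its probe lies at chr7:129313220-129313279 (mm9, plus strand). The gene fell to 80.1% of the scr level (log2 fold change -0.32 ± 0.06, limma adjusted p = 0.0167). Plk4, the related kinase that starts centriole duplication, measured -1.58, -1.78, -2.01 and -1.95 in siLox cells, against -2.39, -2.51, -2.19 and -2.19 in scr cells. All siLox arrays were above all scr arrays, and the level was 140% of that in scr cells (log2 fold change 0.49 ± 0.12, limma adjusted p = 0.0257), a call that was lost in 5 of the 8 fits with 1 array left out. Those were the fits without siLox replicate 1 or 2 and without scr replicate 1, 2 or 3. Aurka, the spindle pole kinase, was at -0.02 ± 0.07 (limma adjusted p = 0.842). Aurkb, the kinase of the chromosomal passenger complex, was well above background on 1 siLox array and on no scr array, so no fold is given. Its levels were -5.19, -4.40, -4.89 and -4.00 in siLox cells, against -4.80, -4.49, -4.69 and -4.77 in scr cells, and they overlapped.

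**Figure D2:**
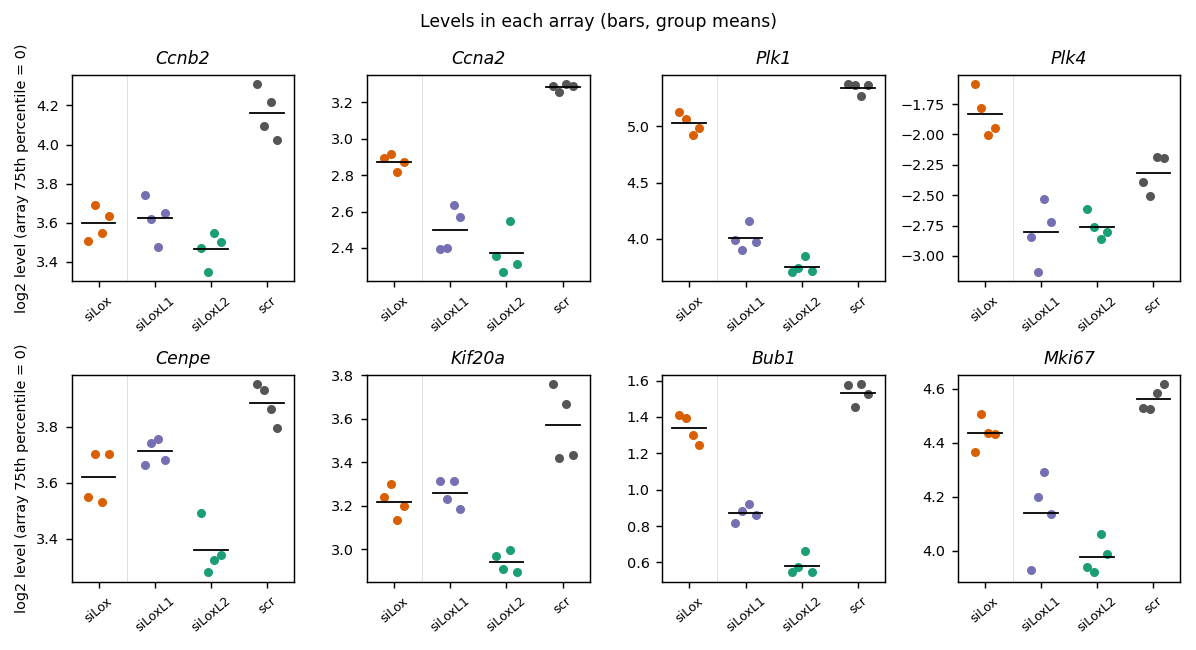
Level (log2 intensity minus each array's 75th percentile) of 8 genes in each of the 16 arrays, with a bar at each group mean, and siLox, siLoxL1, siLoxL2 and scr from left to right. Ccnb2, Ccna2 and Plk1 were lower in every siLox array than in any scr array and Plk4 higher, and Cenpe, Kif20a and Bub1 were higher in every siLoxL1 array than in any siLoxL2 array.

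At the centromere, Cenpf and Cenpe fell and 3 genes did not pass. Cenpf, a large kinetochore protein that accumulates in G2, was dim. It measured -4.23, -4.00, -4.74 and -4.33 in siLox cells, 2 of them well above background, against -3.74, -3.87, -3.77 and -3.44 in scr cells, all well above it. Its log2 fold change of -0.62 ± 0.17 passed (limma adjusted p = 0.0343) and was called in 1 of the 8 fits with 1 array left out, the one without siLox replicate 2. With normexp it was at -0.14 (limma adjusted p = 0.124) and did not pass. Cenpe, a kinetochore motor, was at -0.26 ± 0.07 (limma adjusted p = 0.0318), and its call was also lost with normexp. Birc5, the survivin subunit of the passenger complex, measured 5.33, 5.42, 5.28 and 5.37 in siLox cells, against 5.38, 5.41, 5.42 and 5.62 in scr cells, and the groups overlapped (limma adjusted p = 0.284). Cenpa, the histone H3 variant of centromeres, and Incenp, the scaffold of the passenger complex, were at -0.11 ± 0.06 and -0.07 ± 0.07. None of the 4 checkpoint genes passed, and 1 of them, Bub1, had an unadjusted p under 0.05 in limma. It was at -0.20 ± 0.06 without overlap (limma adjusted p = 0.0528), while Mad2l1, Ttk and Bub1b lay at -0.10, -0.12 and 0.00.

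Of the 7 motor and spindle genes, 4 fell. Kif20a, a kinesin of the central spindle, measured 3.24, 3.30, 3.14 and 3.20 in siLox cells, against 3.76, 3.42, 3.67 and 3.43 in scr cells (log2 fold change -0.35 ± 0.09, limma adjusted p = 0.0328). Nusap1, which bundles spindle microtubules, was at -0.31 ± 0.08, Kif11, the motor that pushes spindle poles apart, at -0.29 ± 0.08 and Kif22, a chromosome arm motor, at -0.24 ± 0.06 (limma adjusted p between 0.0253 and 0.0351). Tpx2, which activates Aurora A, lay at -0.13, the chromokinesin Kif4 at -0.05 and the microtubule depolymerase Kif2c at 0.02, and these did not pass.

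Top2a, the topoisomerase that untangles chromosomes, measured 1.77, 2.11, 2.03 and 2.14 in siLox cells, against 2.31, 2.32, 2.35 and 2.31 in scr cells, with no overlap. It was the 1 of the 4 chromosome structure genes to pass (log2 fold change -0.31 ± 0.09, limma adjusted p = 0.0393). Mki67, the chromosome surface protein used as a proliferation marker, measured 4.37, 4.51, 4.43 and 4.43 in siLox cells, against 4.53, 4.53, 4.58 and 4.62 in scr cells. Every siLox array was below every scr array (exact two-sided permutation p = 0.0286), but the difference of -0.13 ± 0.06 missed the threshold (limma adjusted p = 0.12). The condensin subunits Ncapg and Ncapd2 were at -0.16 and -0.11.

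Cdc20, the activator of the anaphase-promoting complex, fell (log2 fold change -0.28 ± 0.07, limma adjusted p = 0.0237). Separase (Espl1), its inhibitor securin (Pttg1) and the ubiquitin-conjugating enzyme Ube2c lay at -0.20, -0.07 and -0.21 and did not pass. Anln, the actin-binding scaffold of the contractile ring, measured 4.63, 4.61, 4.53 and 4.61 in siLox cells, against 5.19, 4.97, 5.13 and 4.91 in scr cells. It was the only cytokinesis gene of 5 to pass, at 73.0% of the scr level (log2 fold change -0.45 ± 0.08, limma adjusted p = 0.0107). The central spindle genes Prc1 and Kif23 lay at -0.26 ± 0.08 and -0.18 ± 0.07 without overlap (limma adjusted p = 0.0509 and 0.0898), and Racgap1 and Ect2, regulators of RhoA at the cleavage plane, at -0.07 and -0.01. Foxm1, the transcription factor that drives many of these genes in G2, measured 2.10, 2.07, 1.93 and 1.90 in siLox cells, against 1.92, 2.00, 1.99 and 2.04 in scr cells, which overlapped (log2 fold change 0.01 ± 0.07, limma adjusted p = 0.909).

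The promoters of these genes are known for 2 elements, the cell cycle genes homology region (CHR), bound by the LIN54 subunit of MuvB, and CCAAT boxes, bound by NF-Y. RefSeq promoters (assembly GRCm38.p6, 250 bases before to 50 after the transcription start) were matched for 33 of the 40 genes. The CHR letters TTTGAA or TTTAAA, read on both strands, were in 28 of the 33 (84.8%), against 30.6% of 27025 genes with such promoters. CCAAT, also on both strands, was in 26 (78.8%), against 41.1% of those genes, and both kinds of letters in 24 (72.7%), against 12.2%. TTTAAA reads the same on both strands, and a CHR string may share a letter with an adjoining CCAAT. CHR letters began within 50 bases of the start in 23 of the 33 (69.7%), against 9.54%. A match is a description of letters and not of binding. The promoters of the genes past the threshold in siLox against scr held the CHR letters in 11 of 13 and those past it in siLoxL1 against siLoxL2 in 9 of 11.

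Shown here are the promoters of the 4 genes with the largest changes among those that passed in siLox against scr, were matched and held CHR letters, with Cenpf dim as given above. Each runs from 170 bases before to 30 bases after the start in the direction of transcription, 5′ to 3′, in GRCm38.p6 coordinates, with CHR letters and CCAAT boxes of either strand in capitals. The minus-strand genes are Cenpf at chr1:189688057-189688256, Ccnb2 at chr9:70421525-70421724 and Anln at chr9:22389177-22389376, and Plk4 lies on the plus strand at chr3:40799781-40799980.
Cenpf: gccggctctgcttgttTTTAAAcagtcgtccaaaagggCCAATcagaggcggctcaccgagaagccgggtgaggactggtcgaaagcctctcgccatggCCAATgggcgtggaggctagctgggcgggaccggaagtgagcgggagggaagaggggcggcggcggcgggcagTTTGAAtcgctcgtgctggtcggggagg
Ccnb2: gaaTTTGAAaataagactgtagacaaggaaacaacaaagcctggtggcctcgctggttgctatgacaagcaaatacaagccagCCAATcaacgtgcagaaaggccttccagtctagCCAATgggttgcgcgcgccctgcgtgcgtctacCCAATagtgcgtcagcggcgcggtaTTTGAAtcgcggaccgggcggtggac
Anln: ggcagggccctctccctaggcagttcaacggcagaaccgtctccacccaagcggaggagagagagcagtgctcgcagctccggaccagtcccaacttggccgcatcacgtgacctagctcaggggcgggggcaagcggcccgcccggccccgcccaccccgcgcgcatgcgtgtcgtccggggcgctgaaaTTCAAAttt
Plk4: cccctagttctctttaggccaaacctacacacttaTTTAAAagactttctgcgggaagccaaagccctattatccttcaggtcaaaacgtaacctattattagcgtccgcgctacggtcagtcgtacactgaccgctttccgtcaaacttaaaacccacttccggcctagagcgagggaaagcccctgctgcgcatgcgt
In Ccnb2, 3 CCAAT boxes began 33 bases apart from each other, at -87, -54 and -21, and a CHR string began at 5 after the start. In Cenpf, 2 CCAAT boxes began 61 bases apart, and a CHR string began at 3 after the start. Plk4, the gene that rose, held no CCAAT in its matched promoter and its only CHR letters began at -135. Anln, which fell, held no CCAAT either and had its CHR letters at 22 and 29 after the start, of which the one at 29 runs past the bases shown.

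**Figure D3:**
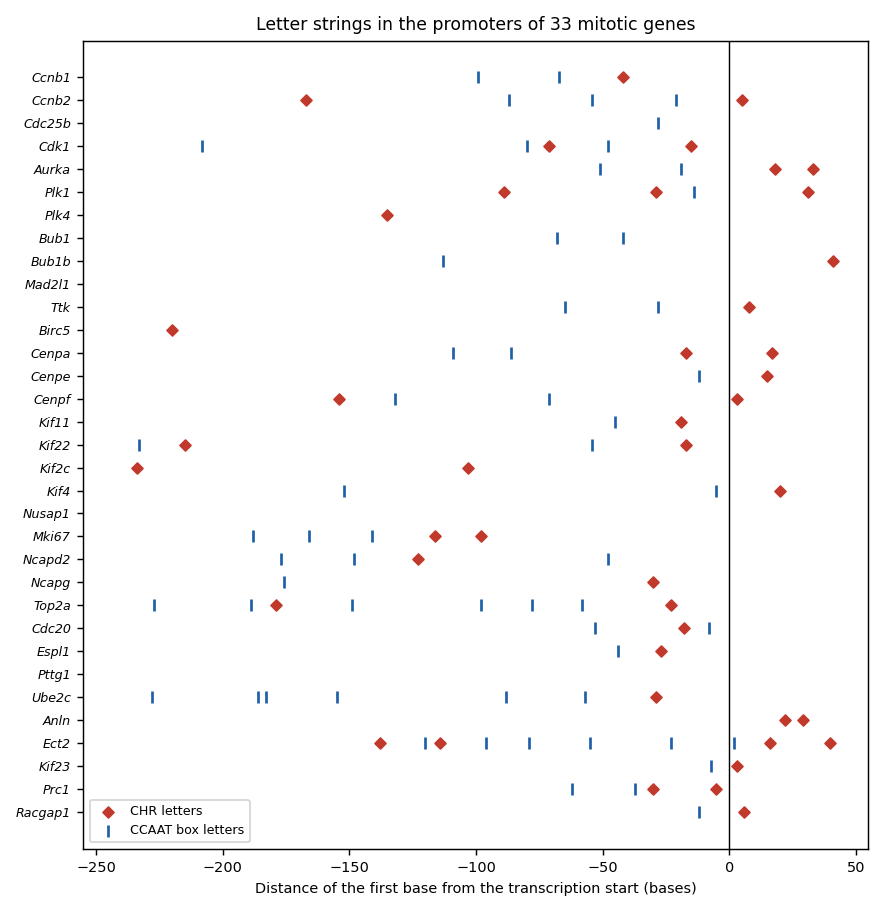
Position of CHR letters (diamonds) and CCAAT boxes (ticks) in the RefSeq promoters of the 33 matched genes, as the distance in bases of the string's first base from the transcription start. In 23 of the genes CHR letters begin within 50 bases of the start.

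In siLoxL1 against siLoxL2, 13 of the 40 genes passed, all of them higher in siLoxL1 cells. In the background 8.80% of all genes passed, 6.10% higher and 2.70% lower, against 32.5% of the 40. Of all genes that passed, 69.3% were higher in siLoxL1 cells, a share that was 56.1% with quantile normalization and 25.9% without replicate 4 of both groups. The median log2 fold change was 0.15, against 0.03 over all genes. Of the 40, 36 lay above 0 and 4 below it, whereas 41.1% of all genes lay below 0, and 33 lay above the median of all genes. The groups did not overlap in 14 of the 40 (35%), against 20.3% of all genes. The mean over the 40 levels was 1.66, 1.65, 1.73 and 1.71 in the siLoxL1 arrays, against 1.57, 1.50, 1.61 and 1.47 in the siLoxL2 arrays, which did not overlap. The count was 4 to 7 when any 1 of the 8 arrays was left out, when 2.69% to 6.24% of all genes passed, and 0 when replicate 4 of both groups was left out, when 0.733% did. Birc5, Bub1, Cenpe and Kif20a passed whichever single array was left out, while Cdc20, Cenpa, Kif22, Plk1 and Racgap1 passed in none of these 8 fits and Mad2l1 in 1. With quantile normalization 6 passed, when 6.65% of all genes did. Cdc20, Cenpa, Incenp, Kif22, Mad2l1, Plk1 and Racgap1 then no longer passed. With the replicate number as a block 3 passed (Birc5, Bub1 and Kif20a), when 3.77% of all genes did, and Cenpe did not.

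Of the 5 centromere and passenger complex genes, 4 were higher in siLoxL1 cells, with a median log2 fold change of 0.25. Cenpe measured 3.67, 3.74, 3.76 and 3.68 in siLoxL1 cells, against 3.49, 3.28, 3.33 and 3.34 in siLoxL2 cells. The lowest siLoxL1 array was above the highest siLoxL2 array (log2 fold change 0.35 ± 0.05, limma adjusted p = 0.0122, a level 128% of that in siLoxL2 cells). Incenp measured 4.63, 4.44, 4.51 and 4.42 in siLoxL1 cells, against 4.18, 4.15, 4.30 and 4.21 in siLoxL2 cells (log2 fold change 0.29 ± 0.06, limma adjusted p = 0.0265). Birc5, its partner in the passenger complex, measured 5.47, 5.42, 5.46 and 5.41 in siLoxL1 cells, against 5.14, 5.18, 5.26 and 5.16 in siLoxL2 cells (log2 fold change 0.25 ± 0.04, limma adjusted p = 0.0135). Neither gene overlapped between these groups. Cenpa measured 2.28, 2.29, 2.30 and 2.45 in siLoxL1 cells, against 2.16, 2.07, 2.13 and 1.96 in siLoxL2 cells (log2 fold change 0.25 ± 0.06, limma adjusted p = 0.0423), one of the calls lost in every fit with 1 array left out. Cenpf was at -0.07 ± 0.26, with siLoxL2 replicate 3 at -3.14 and the other 3 siLoxL2 arrays between -4.43 and -4.13.

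Of the checkpoint genes, Bub1, a kinase that recruits the checkpoint to kinetochores, measured 0.82, 0.88, 0.92 and 0.86 in siLoxL1 cells, against 0.55, 0.57, 0.66 and 0.55 in siLoxL2 cells (log2 fold change 0.29 ± 0.04, limma adjusted p = 0.012). Mad2l1, the checkpoint inhibitor of CDC20, was at 0.21 ± 0.05 by its brightest probe and also passed (limma adjusted p = 0.0321), whereas Bub1b and Ttk were at 0.09 and -0.04. The 3 kept Mad2l1 probes differed in sign, from -0.47 to 0.21, and the call was lost with the mean of the probes. Among the kinases, Plk1 measured 3.99, 3.90, 4.16 and 3.97 in siLoxL1 cells, against 3.70, 3.74, 3.84 and 3.71 in siLoxL2 cells. It was higher by a log2 fold change of 0.26 ± 0.06 (limma adjusted p = 0.0467), without overlap, but no fit with 1 array left out kept the call. Aurka was higher by 0.23 ± 0.04 (limma adjusted p = 0.0166), and Plk4 lay at -0.05 ± 0.12. Aurkb was well above background on 4 siLoxL1 and 2 siLoxL2 arrays. It measured -4.84, -5.37, -5.22 and -5.39 in siLoxL1 cells, against -4.87, -5.33, -5.64 and -6.33 in siLoxL2 cells, and these overlapped (limma adjusted p = 0.482).

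Kif20a measured 3.31, 3.23, 3.31 and 3.18 in siLoxL1 cells, against 2.97, 2.91, 3.00 and 2.89 in siLoxL2 cells, a gap with no overlap (log2 fold change 0.32 ± 0.05, limma adjusted p = 0.0108). Kif22 was the other motor to pass, at 0.25 ± 0.06, and the remaining 5 motor and spindle genes lay between 0.07 and 0.33. Ect2 measured 1.83, 1.99, 2.07 and 1.91 in siLoxL1 cells, against 1.67, 1.63, 1.68 and 1.61 in siLoxL2 cells (log2 fold change 0.30 ± 0.06, limma adjusted p = 0.0211). Racgap1 and Cdc20 passed at 0.20 ± 0.05 and 0.19 ± 0.05 (limma adjusted p = 0.0351 and 0.0468).

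None of the 6 cyclin and cyclin-dependent kinase genes passed between siLoxL1 and siLoxL2, although all 6 lay above 0, between 0.01 and 0.21, and 3 had an unadjusted p under 0.05 in limma. Ccnb1 measured 2.90, 3.02, 3.12 and 3.08 in siLoxL1 cells, against 2.89, 2.87, 2.89 and 2.81 in siLoxL2 cells, a narrow separation (log2 fold change 0.16 ± 0.05, limma adjusted p = 0.102). Ccnb2 measured 3.74, 3.62, 3.48 and 3.65 in siLoxL1 cells, against 3.47, 3.35, 3.55 and 3.50 in siLoxL2 cells, and the groups overlapped. Cdk1 measured 2.56, 2.20, 2.41 and 2.49 in siLoxL1 cells, against 2.18, 2.20, 2.32 and 2.11 in siLoxL2 cells, with siLoxL1 replicate 2 within the siLoxL2 range. None of the 4 chromosome structure genes passed or had an unadjusted p under 0.05 in limma. Mki67 measured 3.93, 4.20, 4.29 and 4.14 in siLoxL1 cells, against 3.94, 3.92, 4.06 and 3.99 in siLoxL2 cells, and overlapped (limma adjusted p = 0.224). Top2a measured 1.94, 1.89, 1.95 and 2.02 in siLoxL1 cells, against 2.07, 2.00, 2.01 and 1.92 in siLoxL2 cells (log2 fold change -0.05 ± 0.05). Foxm1 measured 1.08, 1.01, 1.31 and 1.16 in siLoxL1 cells, against 0.98, 0.98, 1.19 and 1.08 in siLoxL2 cells, again with overlap (limma adjusted p = 0.521).

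**Figure D4:**
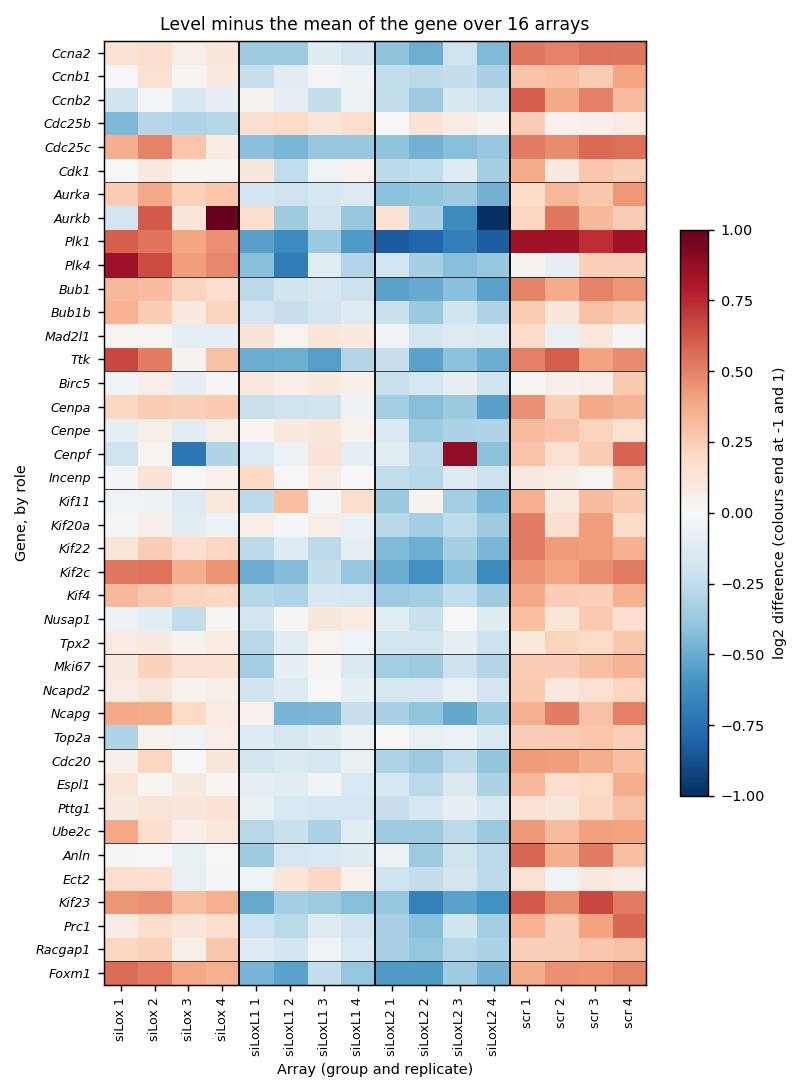
Level of each of the 40 genes in each of the 16 arrays minus the mean of that gene over the arrays (log2, colours end at -1 and 1), with siLox, siLoxL1, siLoxL2 and scr from left to right. Plk4 is highest in the siLox arrays, and Plk1 and Kif23 are lower in every siLoxL1 and siLoxL2 array than in any scr array.

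A further 87 mitotic genes, among them kinetochore, condensin, centrosome and checkpoint genes, were all measured. In siLox against scr, 11.5% of all genes rose and 13.5% fell past the threshold. Of the 87, 12 rose and 17 fell, with a median log2 fold change of -0.09. Those with the largest changes were Trip13, an ATPase that remodels MAD2, at 0.62 ± 0.10, Cenph, a kinetochore protein, at 0.59 ± 0.08, Mybl2, which encodes B-MYB, at 0.53 ± 0.11, and Ccnf, an F-box protein of G2, at -0.52 ± 0.07 (limma adjusted p between 0.00571 and 0.016). The changes of these genes went both ways. In siLoxL1 against siLoxL2, 6.10% of all genes were higher and 2.70% lower. Of the 87, 29 were higher and none lower, with a median of 0.17. Sgo2a, which protects centromeric cohesin in meiosis, was at 0.40 ± 0.06, Ccnf at 0.37 ± 0.05, the spindle pole gene Aspm at 0.35 ± 0.06 and the kinetochore gene Cenpi at 0.34 ± 0.06 (limma adjusted p between 0.00679 and 0.0207).

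Inhibitors of cyclin-dependent kinases were looked at beside these genes. In siLox against scr, Cdkn1b (p27) fell by 0.51 ± 0.14 and Cdkn2d (p19 of the INK4 family) fell by 0.53 ± 0.10 on the log2 scale (limma adjusted p = 0.0335 and 0.0132). Cdkn1a (p21) was at 0.22 ± 0.08 and Cdkn2c at -0.27 ± 0.09, which missed the threshold (limma adjusted p = 0.0735 and 0.0525), and Cdkn1c, Cdkn2a and Cdkn2b lay between -0.27 and -0.13 and did not pass. None of the 7 passed in siLoxL1 against siLoxL2 (3 had an unadjusted p under 0.05 in limma), with Cdkn2a at 0.27 ± 0.09 and Cdkn1a at 0.01 ± 0.08.

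Markers of other cell types were read in the same arrays. The summed level of 16 leukocyte and macrophage markers was 4.78 to 5.05 in siLox and 4.66 to 4.96 in scr cells, and 5.18 to 5.29 in siLoxL1 and 5.31 to 5.42 in siLoxL2 cells. Of the 15 that could be tested, 2 were higher in siLox than in scr cells and 1 was lower in siLoxL1 than in siLoxL2 cells. In siLox against scr, 4 of the 10 fibroblast markers and 4 of the 6 mesothelial markers were lower and 1 mesothelial marker was higher. The summed mesothelial level was 3.70 to 3.85 in siLox and 3.69 to 3.80 in scr cells, and 1 of these markers was higher in siLoxL1 than in siLoxL2 cells. Of 5 endothelial markers that could be tested, none passed in siLox against scr (2 had an unadjusted p under 0.05 in limma) and 1 was lower in siLoxL1 than in siLoxL2 cells. The defining epithelial genes Epcam, Cdh1, Sftpc, Sftpb and Nkx2-1 were not well above background on any of the 16 arrays. Of the other 3 epithelial markers, Krt8 and Krt18 were well above background on all 16 arrays, and Scgb1a1 on 2 siLox arrays and on all 4 arrays of each other group. Krt8 was higher in siLox than in scr cells (log2 fold change 0.27 ± 0.08, limma adjusted p = 0.0485), and no epithelial marker passed in siLoxL1 against siLoxL2 or had an unadjusted p under 0.05 in limma. The part of other cells in the differences of the mitotic genes was not tested.

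Against scr, most of the genes were lower in both groups of the other slide. In siLoxL1 cells 34 of the 40 were lower and none higher, and in siLoxL2 cells 37 were lower and none higher, in fits in which the siRNA and the slide cannot be told apart and which share the scr arrays. In the background 62.0% of all genes passed in siLoxL1 against scr (20.5% lower and 41.5% higher) and 61.1% in siLoxL2 against scr (21.7% lower and 39.4% higher). The median log2 fold change of the 40 was -0.45 in siLoxL1 and -0.61 in siLoxL2, against 0.19 and 0.17 over all genes, and all 40 lay below the median of all genes in both. Quantile normalization lowered that median of all genes by 0.11 and 0.10 and normexp background correction by 0.27 and 0.25 on the log2 scale, and normexp brought it below 0. Relative to the median of all genes, the median of the 40 stood at -0.65 in siLoxL1 and -0.78 in siLoxL2 with the scaling used here, at -0.64 and -0.79 with quantile normalization and at -0.32 and -0.45 with normexp. Of all genes that passed, 66.9% were higher in siLoxL1 than in scr cells, against 45.3% with normexp and 55.9% with quantile normalization; for siLoxL2 these shares were 64.5%, 43.8% and 54.0%.

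Among the 40 genes, each by its brightest probe, Plk1 had the largest difference in both. Its log2 fold change was -1.35 ± 0.07 in siLoxL1 and -1.60 ± 0.06 in siLoxL2 against scr (limma adjusted p = 2.59e-06 and 9.49e-07). Kif23, a motor of the central spindle, measured 0.08, 0.25, 0.22 and 0.16 in siLoxL1 and 0.20, -0.09, 0.05 and -0.02 in siLoxL2 cells, against 1.20, 1.05, 1.25 and 1.10 in scr cells (log2 fold change -0.97 ± 0.07 and -1.12 ± 0.08, limma adjusted p = 1.06e-05 and 1.64e-05). Ttk, the MPS1 kinase of the checkpoint, measured -2.71, -2.70, -2.76 and -2.50 in siLoxL1 cells, against -1.71, -1.61, -1.81 and -1.73 in scr cells (log2 fold change -0.95 ± 0.08, limma adjusted p = 2.17e-05). Cdc25c was at -1.59, -1.64, -1.56 and -1.56 in siLoxL1 cells, against -0.67, -0.70, -0.61 and -0.63 in scr cells (log2 fold change -0.93 ± 0.05, limma adjusted p = 3.03e-06). In these 4 genes no array of the other slide reached the scr range. Kif2c measured -0.75, -0.85, -0.66 and -0.88 in siLoxL2 cells, against 0.20, 0.14, 0.22 and 0.27 in scr cells (log2 fold change -0.99 ± 0.07), and Bub1 was at -0.95 ± 0.06 in siLoxL2 against scr (limma adjusted p = 1.08e-05 and 6.26e-06).

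Cdc25b was the exception among the cyclin and kinase genes, at 0.06 ± 0.06 in siLoxL1 and -0.05 ± 0.06 in siLoxL2 against scr, neither of which passed. By their brightest probes, Birc5, Ect2, Incenp, Kif11 and Mad2l1 also did not pass in siLoxL1 against scr, and Cenpf and Mad2l1 did not in siLoxL2 against scr. The brightest Birc5 probe was at -0.02 in siLoxL1, but its dimmer probes, at -0.27 and -0.41, passed (limma adjusted p = 0.0473 and 0.0025). With the mean of the probes Birc5 and Mad2l1 passed in siLoxL1 and Cdk1 no longer did. In siLoxL2 Mad2l1 then passed and Ect2 no longer did. Aurkb is counted among the genes that passed in both, but it was not well above background on any scr array, so its difference has no measured size.

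**Figure D5:**
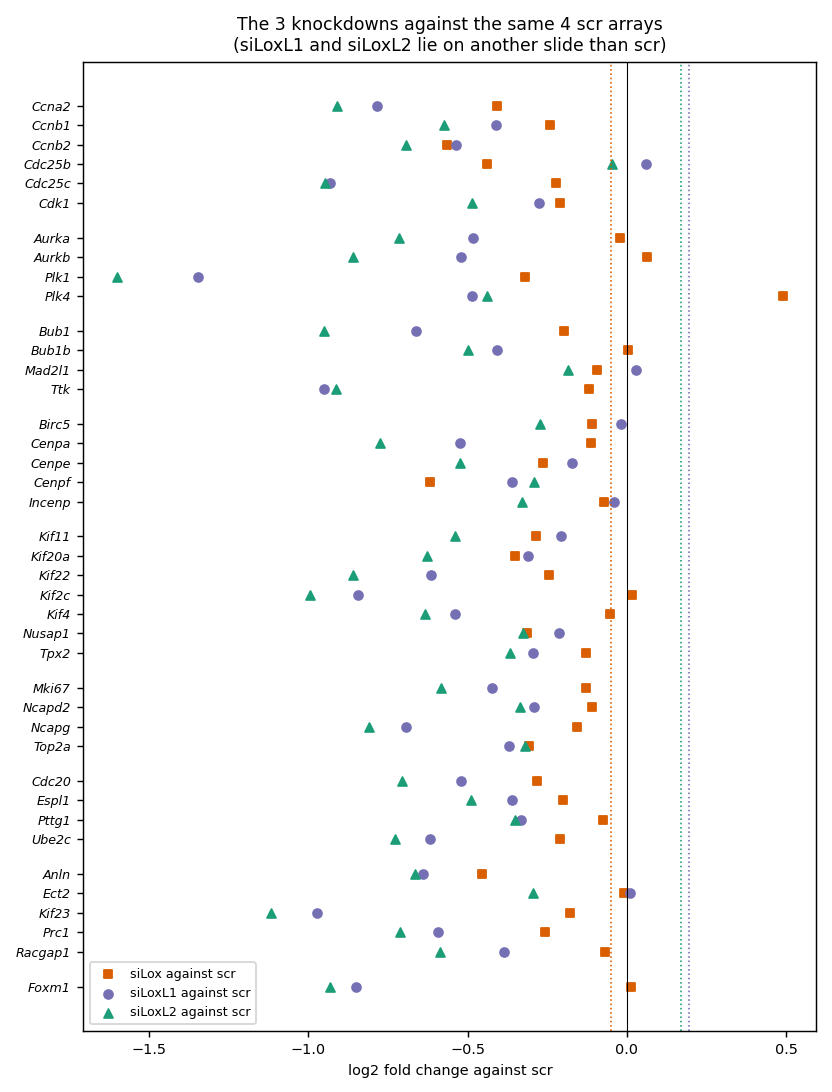
Log2 fold change against the same 4 scr arrays of each of the 40 genes in siLox, siLoxL1 and siLoxL2, each with its own symbol and colour, with dotted lines at the median of all genes for each comparison. In siLoxL1 and siLoxL2, which lie on another slide than scr, every point is left of its dotted line, and Plk1 lies farthest left, at -1.35 and -1.60.

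The difference from scr also varied between probes of the same gene. For 8 of the 40 genes, 2 or more probes of the same RefSeq transcript were well above background on all 16 arrays and lay 100 bases or more apart. In siLoxL1 against scr, the probe farthest from the 3′ end was lower than the probe nearest to it in 7 of these 8 genes, with a median gap of -0.41, and in siLoxL2 against scr in 8 of 8, with a median gap of -0.32. The same gap over 2700 other genes was -0.15 and -0.10, and the far probe was lower in 64.3% and 61.3% of them. Within a slide the gap was 0.04 for these 8 genes in siLox against scr and -0.06 in siLoxL1 against siLoxL2, against 0.04 and -0.04 in the other genes, of which 39.6% and 61.6% had the lower far probe. In the other genes that share was thus as high in siLoxL1 against siLoxL2 as across the slides, with a smaller gap. For Mad2l1, the probe near the 3′ end was at 0.03 in siLoxL1 and -0.19 in siLoxL2 against scr, whereas the far probe was at -1.72 and -1.47. Securin (Pttg1) was at -0.33 and -0.35 by the near probe and at -1.75 and -1.83 by the far one, and Ccnb1 at -0.41 and -0.57 by the near and -0.85 and -1.02 by the far one. The fold changes of the 40 genes given here come from the brightest probe of each gene. The near probe was also the brighter one in these 8 genes except Kif2c, so probe position and brightness cannot be told apart here. Mean levels over the 16 arrays were 2.79 near and -1.10 far in Mad2l1 and 4.66 and -0.96 in Pttg1. Mki67 probes were closer in level, at 4.28 and 3.97, with gaps of 0.05 and -0.007 in siLoxL1 and siLoxL2 against scr. The part of probe position or brightness in the differences from scr was not tested.

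The summed epithelial marker level also differed between the slides, at -0.92 to -0.53 in siLoxL1 and -0.93 to -0.71 in siLoxL2 cells, against 2.26 to 2.84 in scr cells, through Krt8 and Krt18. The summed mesothelial level was 4.37 to 4.55 over the siLoxL1 and siLoxL2 cells, against 3.69 to 3.80 in scr cells, mostly through Krt19. All 6 of these markers passed in both, 2 higher (Krt19 and Msln) and 4 lower. Krt19 averaged 4.01 in siLoxL1 and 4.07 in siLoxL2 cells, against 1.68 in scr cells. Wt1, one of the 4 lower, averaged 0.07 and -0.18, against 2.45. Of the 10 fibroblast markers, 5 were higher and 3 lower in both groups against scr. Of the inhibitors, Cdkn1c (p57) was at 1.06 ± 0.09 in siLoxL1 and 1.23 ± 0.10 in siLoxL2, Cdkn2a at 0.66 and 0.39, Cdkn2d at 0.52 and 0.59, and Cdkn2b at -0.34 and -0.47 against scr, all of which passed. Cdkn1a passed in siLoxL1 (0.20 ± 0.07, limma adjusted p = 0.0305) and not in siLoxL2 (0.19 ± 0.09, limma adjusted p = 0.101), and Cdkn1b and Cdkn2c in neither. Among the 87 further mitotic genes, 10 were higher and 47 lower in siLoxL1, and 9 higher and 58 lower in siLoxL2 against scr. Of all genes, 41.5% were higher and 20.5% lower in siLoxL1, and 39.4% higher and 21.7% lower in siLoxL2. The part of these differences that goes with the slide cannot be told apart from that of the siRNA.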

How the data were processed

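Each of the 16 samples was hybridised to one 1-colour Agilent array, and the authors deposited the scanner output with spot intensity values, made with Agilent Feature Extraction 10.7.3.1 per the file headers. The authors' deposited value table holds log2 values with the same median in every column, matching quantile normalized scanner values, and was used as an alternative. Levels were log2 of the processed intensity minus the 75th percentile of the array over non-control probes. Control spots and outlier spots were left out, and a probe was kept if well above background on all 4 arrays of a group. The kept probes numbered 32430 of 55681, and the brightest stood for each of 22644 genes. Comparisons were fitted with limma 3.58.1 in R 4.3.3 on the 8 arrays of the 2 groups, because the spread differed between slides, with Benjamini-Hochberg adjustment over all genes. The fit was tested on simulated data. Probe positions are in mm9 and RefSeq promoters in GRCm38.p6, and these are not set against each other. The number of arrays limits the precision.

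The 40 genes, the other lists and the tests were chosen with earlier results of these data known. Values in every array are given for up to 8 genes per within-slide comparison with the largest fold change past the threshold, and always for Mki67, Top2a, Cdk1, Ccnb1, Ccnb2, Plk1, Aurkb, Birc5 and Foxm1. Across slides, the 4 with the largest fold change are named. The probe position comparison was added after the data were seen. Alternatives were normexp background correction, quantile normalization, the authors' table, no filter on dim probes, all 16 arrays in the fit, a replicate block, the mean of a gene's probes, and arrays left out.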

Additional observations from a re-analysis of the deposited data

Results flagged for a closer look

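Of 160 groups of 4 arrays, 5 held an array far from the other 3 relative to the range of the group by Dixon's criterion, where chance gives about 8. Anln was at 4.53 in siLox replicate 3, against 4.61 to 4.63 in the other siLox arrays. Cenpa was at 2.45 in siLoxL1 replicate 4, against 2.28 to 2.30. Kif4 was at 0.32 in siLoxL2 replicate 3, against 0.20 to 0.22. Ube2c was at 3.47 in the same array, against 3.37 to 3.38. Plk1 was at 5.27 in scr replicate 3, against 5.37 to 5.38.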

How the results depend on the processing

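In siLox against scr the count of the 40 genes past the threshold, 15, was 6 without the filter on dim probes, where more genes were tested, and 5 to 14 with 1 array left out. The count was 17 with normexp, where Bub1, Cdk1, Prc1 and Ube2c passed and Cenpe and Cenpf did not. With all 16 arrays in the fit it was 20. Among all genes, 25.0% passed, against 8.55% without the filter, 27.6% with normexp and 43% with all 16 arrays in the fit, and 1830 to 7829 genes with 1 array left out, against 5653. For Aurkb, which was at background and has no measured fold, the fitted difference between background values changed sign: it was -0.048 with normexp and -0.17 without replicate 4 of both groups, and ranged from -0.14 to 0.25 with 1 array left out. Foxm1, at 0.012, was -0.013 with normexp, -0.023 with the mean of its probes and 0.061 without replicate 4, and ranged from -0.023 to 0.045. In siLoxL1 against siLoxL2 the count, 13, was 6 with quantile normalization, 6 with the authors' table, 5 without the filter, 0 without replicate 4 of both groups, and 4 to 7 with 1 array left out. Among all genes, 8.80% passed, against 6.65% with quantile normalization, 6.66% with the authors' table and 1.86% without the filter. The share was 4% with all 16 arrays and 0.733% without replicate 4, and 609 to 1412 genes passed with 1 array left out, against 1993. With the replicate number as a block, 0 of the 40 genes passed in siLox against scr (0.0132% of all genes) and 3 in siLoxL1 against siLoxL2 (3.77%), with 32 and 38 in siLoxL1 and siLoxL2 against scr (57.6% and 57.3%). The 3 were Birc5, Bub1 and Kif20a, so that Cenpe was lost, and 52.5% of all genes that passed were then higher in siLoxL1 than in siLoxL2 cells. The labels do not say whether same-numbered arrays shared more than a number. Their deviations correlated at -0.19 to -0.002 in siLox and scr and at 0.04 to 0.22 in siLoxL1 and siLoxL2. Each siLoxL1 array correlated best with the siLoxL2 array of its own number, and whether these arrays were paired is not known. Against scr, the median of the 40 genes in siLoxL1 was -0.40 with normexp, -0.56 with quantile normalization, -0.56 with the authors' table and -0.52 with the mean of the probes. In siLoxL2 it was -0.53, -0.72, -0.72 and -0.68 under the same settings. With 1 array left out, the counts were 31 to 33 in siLoxL1 and 36 to 38 in siLoxL2. In these fits 56% to 65.1% and 54.4% to 64.2% of all genes passed. Fewer arrays or more genes entered some of these fits, and the cause of the changes was not tested. Probes near background, such as those of Aurkb and Cenpf, limit what can be measured.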

Other observations

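A second, dimmer Cdk1 probe, well above background on 8 of the 16 arrays, was at -0.92 in siLox against scr (limma adjusted p = 0.0403), with levels close to background. The brightest Cdk1 probe was at -0.21 and the remaining kept Cdk1 probe, above background on all 16 arrays, at -0.20, and neither passed. Among the 13 genes with several kept probes, probes of a gene had opposite signs in 2 in siLox against scr and in 2 in siLoxL1 against siLoxL2. Mybl2 rose in siLox against scr (0.53), whereas it was at -0.95 in siLoxL1 and -0.998 in siLoxL2 against the same scr arrays, on the other slide. Cenph was at 0.59, 0.63 and 0.41 in siLox, siLoxL1 and siLoxL2 against scr.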
